A study of Mus musculus with 18 samples.

Results

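The genes described here are 4 chemokines that draw neutrophils into tissue, Cxcl1, Cxcl2, Cxcl3 and Cxcl5, and Cxcr2, the receptor they share. They were taken by symbol, and all 5 were found among the 32285 genes of each of the 10 mRNA libraries. The libraries came from mouse skin in which an expander hydrogel had been placed under the skin near the neck (expanded, EXP) and from skin of mice that had the surgery without an expander (control, CTRL). Every mouse of both arms had an incision on the back near the tail, a path made under the skin towards the neck, and stitches, so the control is operated skin and not untouched skin. Skin was taken on day 1, day 2 or day 4, and live cells were sorted. There were 2 control and 2 expanded libraries on day 1, 2 and 2 on day 2, and 1 and 1 on day 4, which form 5 pairs by day and sequencing round. The cells of all mice of an arm and round were pooled in 1 tube, so a library and not a mouse is the unit of most comparisons. Strain, age and sex of the mice are not stated in the labels.

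CXC chemokines with the glutamate-leucine-arginine motif before their first cysteines bind CXCR2, a G protein-coupled receptor on neutrophils, and guide these cells out of the blood and towards injured or infected sites. Their genes are silent or low in most resting cells and are switched on quickly by interleukin-1, tumour necrosis factor, interleukin-17 and microbial products, largely through NF-kappaB, while their short-lived mRNAs are removed by proteins such as tristetraprolin (Zfp36). In skin, macrophages, fibroblasts, vessel-wall cells and keratinocytes can all make them, and neutrophils themselves make Cxcl2.

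The 4 ligands lie in 1 cluster on mouse chromosome 5 and all are transcribed from the plus strand (GRCm38, GENCODE M21). The annotated genes are Cxcl5 (ENSMUSG00000029371) at chr5:90759360-90761624, Cxcl3 (ENSMUSG00000029379) at chr5:90786103-90789600, Cxcl1 (ENSMUSG00000029380) at chr5:90891241-90893115 and Cxcl2 (ENSMUSG00000058427) at chr5:90903871-90905938. Cxcr2 (ENSMUSG00000026180) lies at chr1:74153989-74161246, also on the plus strand. The RefSeq promoter table (GRCm38.p6) held 4 of the 5 genes, and Cxcl5 had no entry. The 110 bases before the RefSeq start sites of Cxcl1, Cxcl2 and Cxcl3 are shown because these genes were high in the same myeloid cells; capitals mark GGGAATTTC, an NF-kappaB-type sequence, which begins 71 bases before the start in Cxcl1, 97 bases before it in Cxcl2 and 73 bases before it in Cxcl3. All 3 stretches are read 5′ to 3′ on the plus strand, at chr5:90891135-90891244, chr5:90903789-90903898 and chr5:90785991-90786100.
Cxcl1: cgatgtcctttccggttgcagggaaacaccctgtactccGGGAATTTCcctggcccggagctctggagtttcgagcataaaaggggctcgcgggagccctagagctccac
Cxcl2: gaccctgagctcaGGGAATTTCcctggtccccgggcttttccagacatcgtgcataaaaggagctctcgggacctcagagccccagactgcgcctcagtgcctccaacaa
Cxcl3: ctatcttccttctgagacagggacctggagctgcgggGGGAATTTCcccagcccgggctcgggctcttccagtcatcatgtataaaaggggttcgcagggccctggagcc
On either strand the same 9 letters were found in 85 of 32851 RefSeq promoters of 300 bases (0.259%), from 250 bases before the start to 50 after it. They were not found in the Cxcr2 promoter. A match describes the letters and not a bound site.

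Library totals ranged from 17726739 to 75470722 UMIs (unique molecular identifiers, each standing for 1 captured mRNA molecule). After filters, 44364 cells remained, 27657 from control and 16707 from expanded skin, with at most 18 cell barcodes shared by any pair of libraries. Clusters gave 16 classes named by their markers, among them the keratinocytes and fibroblasts of skin, and 10 clusters that stayed unnamed. Neutrophil-like cells numbered 77 in control libraries (0.278% of cells) and 1202 in expanded libraries (7.19%), with 19, 206, 493, 185 and 299 in the single expanded libraries. The expanded library of day 1 round 1, which had the fewest, also stands apart for several ligands below, and those results are given with and without it where it decides them. Levels below are counts-per-million (CPM) of the UMIs of a class in a library, compared across classes or arms for 1 gene at a time. Where 5 values are listed, they follow the order day 1 round 1, day 1 round 2, day 2 round 1, day 2 round 2 and day 4. A gene is called changed when its adjusted p in edgeR's quasi-likelihood test, fitted over all genes of the class, is under 0.05. The mice are separate animals, but the libraries pool them, so these p-values measure the spread between libraries.

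The 5 genes were read in different cells. Over all kept cells the libraries held 300277 Cxcl1, 1286861 Cxcl2, 76156 Cxcl3, 14624 Cxcl5 and 2831 Cxcr2 UMIs. Cxcl2, a strong neutrophil attractant of myeloid cells, had 47.8% of its control UMIs in macrophage or monocyte-like cells and 44.0% in dendritic-like cells. In expanded skin these shares were 54.3% and 10.4%, and neutrophil-like cells held 30.1%. Cxcl3, the closest relative of Cxcl2 in this pattern, had 51.4% of its control UMIs in dendritic-like cells and 40.1% in macrophage or monocyte-like cells. In expanded skin 62.8% came from macrophage or monocyte-like cells, 30.6% from neutrophil-like cells and 4.23% from dendritic-like cells. The line between these classes is not sharp. Cluster 1, with 2970 cells the largest of the dendritic-like class, has Mgl2, Ccl17 and Cd209e among its leading genes, and also Lyz1, Mmp12 and Marco. Its markers were scored by their mean log level, each scaled from 0 in the lowest to 1 in the highest cluster. That score was 0.753 for macrophages or monocytes and 0.676 for dendritic cells, and the cluster took the dendritic name because 1 marker of that class and 0 of the other were among its 10 leading genes. With finer clusters 1037 of its cells (34.9%) joined a macrophage or monocyte-like cluster. Cluster 1 alone held 42.4% of the control Cxcl2 and 49.0% of the control Cxcl3 UMIs, so the split of both ligands between the dendritic and macrophage names depends on that cluster.

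Cxcl1 was the most evenly spread ligand. Macrophage or monocyte-like cells held 27.0% of its control and 32.1% of its expanded UMIs, and fibroblast-like cells 21.9% and 22.8%. Cxcl5 was the ligand of stromal cells in expanded skin: fibroblast-like cells held 20.9% of its 944 control UMIs and 65.3% of its 13680 expanded UMIs. Cluster 19, an unnamed cluster of 752 cells led by Erfe, Pax7, Apod and Asb5, held another 18.9% and 20.6%. Its best match was to fibroblast markers, short of a name, and with finer clusters 550 of its cells formed nearly all of a fibroblast-like cluster led by Apod and Smim41 and the other 202 nearly all of a skeletal muscle-like cluster led by Myod1 and Erfe. Of the Cxcr2 UMIs, neutrophil-like cells held 43.2% in control and 90.2% in expanded skin. These shares move with the number of cells of each class as well as with the level per cell.

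**Figure D1:**
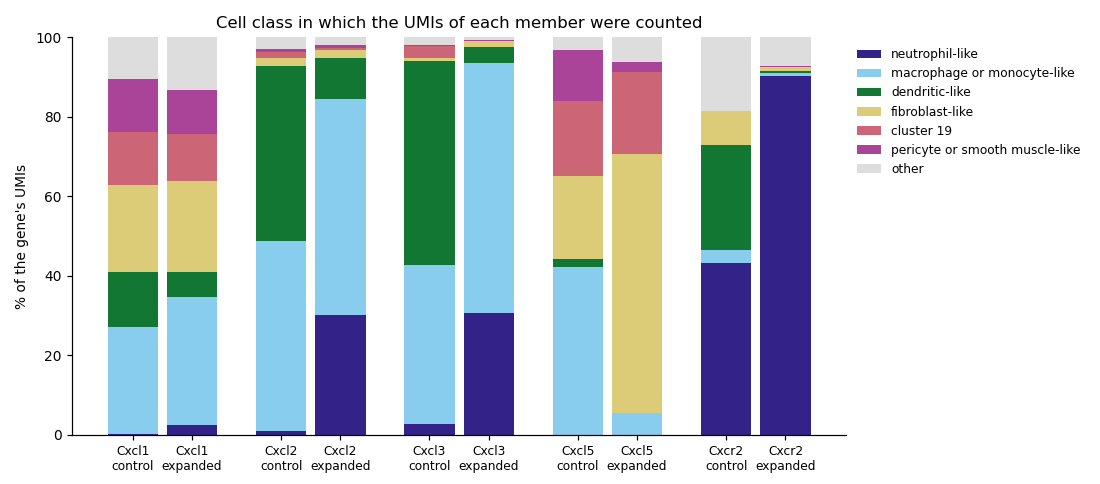
Share of each gene's UMIs (percent, vertical axis) counted in each cell class, with the control and the expanded libraries summed separately. Neutrophil-like cells take 30.1% of Cxcl2 and 90.2% of Cxcr2 UMIs in expanded skin, and fibroblast-like cells take 65.3% of Cxcl5 UMIs.

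The order of the levels is given over the classes and clusters with at least 20 cells in all 5 libraries of an arm. Ranked in this way in control skin, Cxcl1 was highest in cluster 19 (4749 to 11087 CPM over 5 libraries) and in pericyte or smooth muscle-like cells (4389 to 5777 CPM), the contractile cells around vessels. The ranges of these first ranks overlapped. Macrophage or monocyte-like cells followed at 1611 to 3867 CPM, below every pericyte value. Dendritic-like (449.6 to 1009 CPM), endothelial-like (388 to 611 CPM) and fibroblast-like cells (189 to 701 CPM) came next with overlapping ranges. Groups with fewer libraries lay among these: neutrophil-like cells at 1616 CPM and cluster 32 at 1363 CPM, each in 1 library, and dermal papilla-like cells at 341 to 491 CPM in 3. In expanded skin the order began in the same way, with cluster 19, pericyte or smooth muscle-like and macrophage or monocyte-like cells, and fibroblast-like cells came next (311 to 2219 CPM), with overlapping ranges at each step. T cell-like cells, taken here as cells that should lack the gene, held 17.6 to 166 CPM.

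For Cxcl2 the order in control skin was macrophage or monocyte-like cells (12490.0 to 18137 CPM), dendritic-like cells (6604 to 8409 CPM), cluster 19 (760.1 to 3947 CPM) and pericyte or smooth muscle-like cells (712 to 2023 CPM). The ranges of the macrophage, dendritic and cluster 19 ranks did not overlap, and those of cluster 19 and pericytes did. In the 1 control library with enough of them, neutrophil-like cells were at 39283 CPM, above all of these, and cluster 32, also from 1 library, was at 6609.9 CPM. Cxcl3 had the same leaders at lower counts, with 167 to 571 CPM in macrophage or monocyte-like, 226 to 352 CPM in dendritic-like and 6.45 to 274 CPM in cluster 19 cells, all overlapping. Cxcl5 was at most 6.69 CPM in control fibroblast-like cells and lower still in dendritic-like, endothelial-like and basal or suprabasal keratinocyte-like cells. Its control values reached 99.9 CPM in cluster 19, 120.3 CPM in macrophage or monocyte-like cells and 129 CPM in pericyte or smooth muscle-like cells. In the macrophage and pericyte classes that was 1 library, and the other controls were at most 35.7 CPM.

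**Figure D2:**
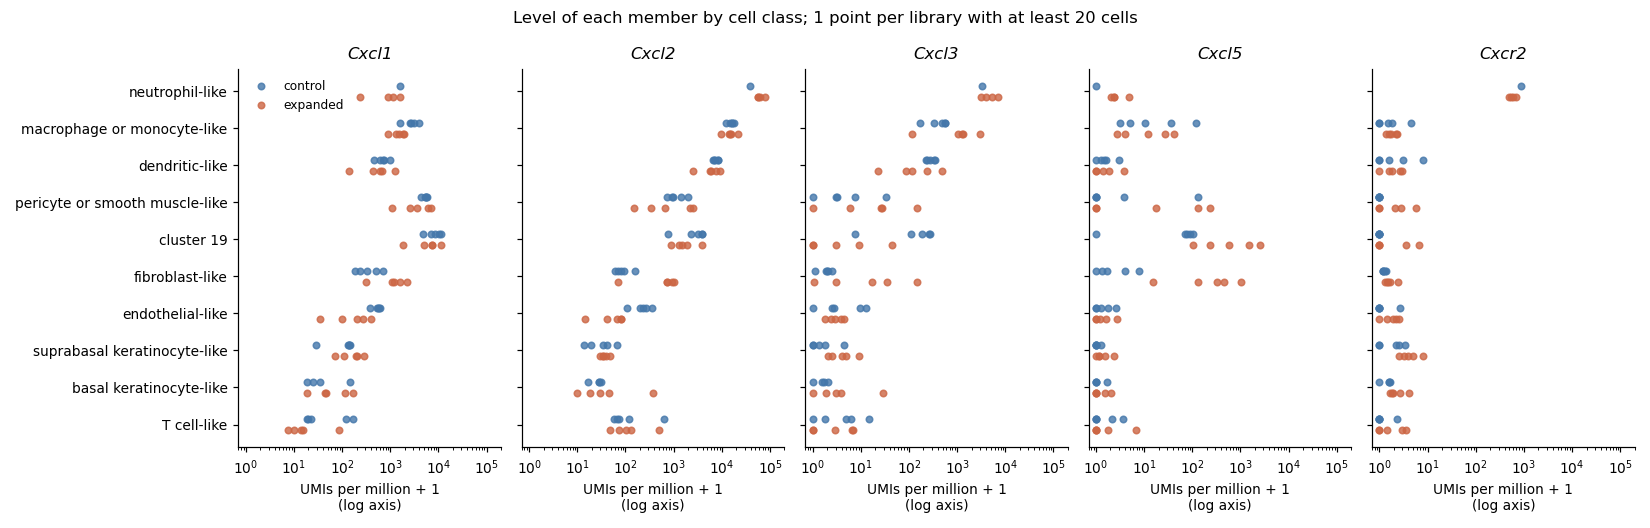
Level of each gene (CPM plus 1, log axis) in 10 classes, 1 point per library with at least 20 cells of the class, blue for control and orange for expanded. Cxcr2 stands apart in neutrophil-like cells, and the expanded points of Cxcl5 lie to the right of the control points in fibroblast-like cells and in cluster 19.

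In fibroblast-like cells the ligands were higher with expansion. The gene family was chosen with this contrast known, so its values here are a description without a test. Cxcl5, a chemokine of stromal and epithelial cells, had control levels of 0.321, 0.657, 0, 6.69 and 3.07 CPM. In the expanded libraries the levels were 14.4, 325, 448, 130.3 and 1008 CPM. All expanded libraries lay above all control libraries, and the lowest expanded value was that of day 1 round 1. The fitted difference was 7.33 (SE 0.99) on the log2 scale.

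Cxcl1 had 233, 189, 701, 517 and 331 CPM in control and 311, 1182, 1589, 1106 and 2219 CPM in expanded fibroblast-like cells. It was higher in all 5 pairs, with overlapping groups, and the fitted log2 difference was 1.51 (SE 0.35). Cxcl2 had 91.0, 58.9, 156, 78.9 and 67.3 CPM in control and 67.8, 725, 717, 921 and 1003 CPM in expanded libraries. Only the day 1 round 1 pair went the other way, and the log2 difference was 2.62 (SE 0.52). Cxcl3 stayed low at 1.03, 1.5, 0.125, 1.14 and 0.943 CPM in control and 0.071, 16.1, 34.0, 2.13 and 145 CPM in expanded libraries, with a log2 difference of 4.15 (SE 1.05). In the day 4 expanded library 410 of its 521 UMIs (78.7%) came from 1 cell, so that value does not describe the class. Across all genes of the class, 33.3% were called in this contrast, which is given for scale only.

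**Figure D3:**
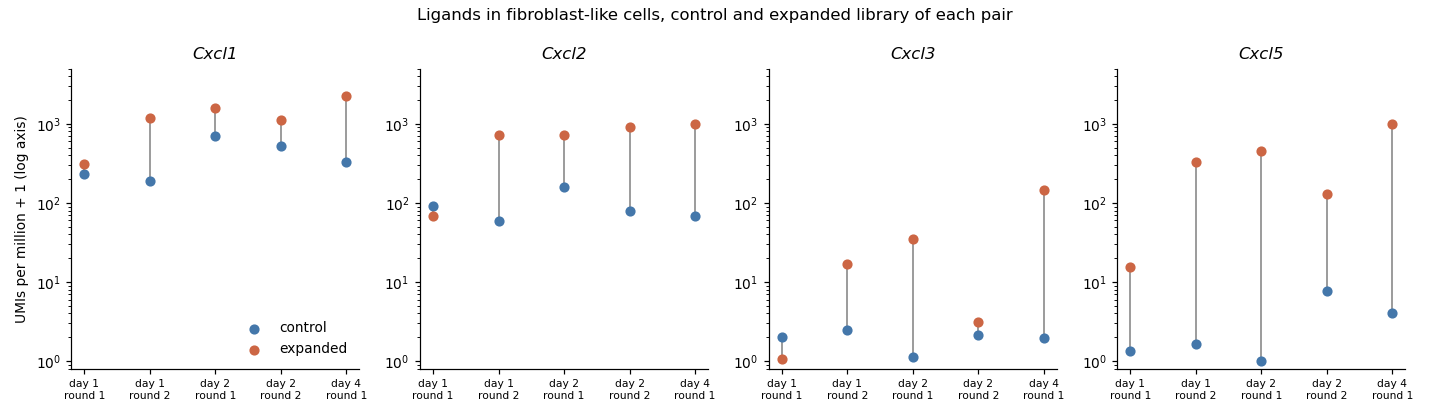
Levels of the 4 ligands in fibroblast-like cells (CPM plus 1, log axis), with the control and expanded library of each of the 5 pairs joined by a line. Cxcl5 and Cxcl1 rise along every line, Cxcl2 and Cxcl3 along 4 of 5, and the day 1 round 1 pair moves least for Cxcl1, Cxcl2 and Cxcl5.

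Few fibroblast-like cells carried Cxcl5. With every cell thinned to 2000 UMIs, it was seen in 1.20, 6.38, 7.67, 5.38 and 15.6% of expanded cells of the 5 libraries and in at most 0.197% of control cells. Without thinning the shares were 2.10% to 20.3% and at most 0.432%. Before thinning, the cells with at least 1 UMI were 14 of 668, 39 of 472, 41 of 290, 11 of 95 and 37 of 182 expanded fibroblast-like cells. The cell with most UMIs held 48, 356, 423, 104 and 623 of them, which is 15.2% to 42.4% of all Cxcl5 UMIs of the class in a library. The expanded level of Cxcl5 thus rests on 11 to 41 cells per library.

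Cxcl1 was broader: after thinning it was seen in 13.3, 12.3, 22.5, 17.5 and 17.9% of control and 21.5, 37.0, 40.1, 37.6 and 53.3% of expanded fibroblast-like cells. In T cell-like cells, taken as cells that should lack the gene, the share was 0.719% to 5.61% over both arms. Without thinning Cxcl1 was seen in 22.6% to 32.2% of control and 40.4% to 70.3% of expanded fibroblast-like cells. Thinning left out 55 control and 11 expanded fibroblast-like cells and 171 and 60 T cell-like cells. The median UMI count per cell was 8094 to 14024 in control and 12911 to 21890 in expanded fibroblast-like cells and 2707 to 5965 in T cell-like cells. Cxcl2 was seen in 7.55, 6.12, 7.15, 5.73 and 6.15% of control and 3.75, 17.9, 22.3, 16.1 and 27.2% of expanded fibroblast-like cells. T cell-like cells had 15.4, 10.7, 6.15, 10.9 and 15.7% and 10.6, 9.32, 17.8, 12.2 and 14.4%. Control fibroblast-like cells thus had a Cxcl2 UMI less often than T cell-like cells in 4 of 5 libraries and expanded ones in 1 of 5. Single control fibroblast-like cells held up to 348, 104, 141, 133 and 128 Cxcl2 UMIs in the 5 libraries. After thinning, 38.6% of the 619 control cells with Cxcl2 also had Cxcl1, against 13.6% of the 8753 without it. The unthinned Cxcl2 shares were 12.8% to 33.9% and 13.5% to 53.3% of fibroblast-like cells.

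The ligands met in the same expanded fibroblast-like cells. Of 93 cells with a Cxcl5 UMI after thinning, 80.6% also had Cxcl1 and 49.5% Cxcl2, against 30.4% and 11.9% of 1603 cells without Cxcl5. These shares pool 5 libraries and are not tested. The 8 markers of neutrophils summed to 0.999 to 3.8 CPM (1 to 5 of them at 0 in a library) in control and 3.98 to 125 CPM in expanded fibroblast-like cells (0 to 3 at 0), and the 11 of macrophages or monocytes to 55.9 to 88.2 and 28.2 to 83.5 CPM. In expanded libraries there were 573 to 4381 Cxcl2 UMIs per 100 neutrophil marker UMIs in fibroblast-like cells, against 41.1 to 77.3 in neutrophil-like cells. Per 100 macrophage marker UMIs there were 122 to 3268, against 57.2 to 330.2 in macrophage or monocyte-like cells. The part of free RNA in the Cxcl2 difference was not tested.

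The fibroblast clusters differed in their ligands and in their share of each arm. Cluster 3, led by Ccl19, Cilp, Tnfrsf11b and Tnc, had Cxcl5 levels of 0.571, 2.62, 0, 5.28 and 14.4 CPM in control and 35.8, 561, 744, 201 and 1833 CPM in expanded libraries. In cluster 6, led by Igfbp2 and Mme, Cxcl5 was 0 to 0.409 and 0 to 6.88 CPM. Cluster 0, which held 5151 cells, nearly all of control skin, had 35.8 to 69.4 CPM of Cxcl1 in control libraries. Cluster 18, led by Sult1e1 and Gpx3, had 1414 to 3342 CPM of Cxcl1 without an expander. Within cluster 3 alone Cxcl1 was 556, 245, 547, 469 and 550.0 CPM in control and 473, 1589, 1842, 1215 and 2868 CPM in expanded libraries, and within cluster 6 alone 95.9, 165, 336, 121 and 304 and 254, 695, 1169.5, 1019 and 1577 CPM. The log2 difference of Cxcl1 was 1.60 (SE 0.33) in cluster 3 and 2.01 (SE 0.31) in cluster 6, and that of Cxcl2 was 2.42 (SE 0.60) and 2.91 (SE 0.41). These fitted differences were positive, although Cxcl1 in cluster 3 was lower in the day 1 round 1 pair. The mix of finer clusters within clusters 3 and 6 was not held fixed.

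Stromal clusters that stayed unnamed are also described without a test. Cluster 2, led by Fmod and Coch, scored best on dermal papilla markers but matched no class clearly. Its Cxcl1 was 204, 161, 169, 235 and 348 CPM in control and 257, 643, 621, 386 and 479.8 CPM in expanded libraries. Cxcl2 in the same cells was 86.7, 71.9, 16.5, 57.9 and 132 and 157, 292, 247, 119 and 246 CPM, and both ligands were higher in all 5 pairs. Cxcl5 was at most 1.02 CPM in control and 0.244, 22.7, 31.3, 1.51 and 26.3 CPM in expanded libraries. In cluster 13, which scored best on fibroblast markers and was shallow, Cxcl1 was 58.8 to 182 and 193 to 1661 CPM, with no overlap.

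Cluster 19 had much Cxcl1 in both arms and went another way for Cxcl3. Its Cxcl1 was 4749, 8592, 7014, 10138 and 11087 CPM in control and 1805, 4997, 11274, 7258 and 7300.3 CPM in expanded libraries, with overlapping groups. Cxcl3 was 6.45, 109.5, 184, 265 and 274 and 0, 2.14, 43.3, 0 and 8.16 CPM, lower in all 5 pairs. The control Cxcl3 UMIs came from 1, 3, 2, 8 and 7 cells, and single cells held 2 of 2, 39 of 45, 21 of 32, 105 of 241 and 92 of 145 of them. Cxcl5 was 99.9, 77.9, 0, 86.8 and 68.0 CPM in control and 227, 1478, 2569, 103 and 574 CPM in expanded libraries, and the groups did not overlap. In day 2 round 1, 635 of its 891 expanded UMIs (71.3%) came from 1 cell. The share of the skeletal muscle-like cells within cluster 19 was not held fixed in these values.

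In macrophage or monocyte-like cells, which held most Cxcl2 and Cxcl3 UMIs of expanded skin, Cxcl1 fell and Cxcl2 did not pass the test. Cxcl1 was 2690.4, 3867, 2607, 1611 and 3097 CPM in control and 1291, 1953, 1803, 918 and 1531 CPM in expanded libraries. It was lower in all 5 pairs, although the groups overlapped, with a log2 fold change of -0.97 (SE 0.26, adjusted p 0.0189) by edgeR. Leaving out the control library of day 1 round 2, of day 2 round 1 or of day 4, or the expanded library of day 4, brought the edgeR adjusted p to between 0.0537 and 0.0668, at log2 fold changes of -0.92 to -0.84. Cxcl2 was 12490.0, 18137, 16478, 14570.2 and 16039.8 CPM in control and 9543, 22042, 15147, 14273 and 14527 CPM in expanded libraries, a log2 fold change of -0.13 (SE 0.23, adjusted p 0.709) by edgeR.

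Cxcl3 was 167, 571, 479, 550.1 and 336 CPM in control and 116, 2995, 1337, 1046 and 1263 CPM in expanded macrophage or monocyte-like cells. Of the expanded libraries 4 lay above every control library, and that of day 1 round 1 lay below every one. The log2 fold change was 1.62 (SE 0.65, adjusted p 0.0875) by edgeR. With the pair of day and sequencing round as a replicate block it was 1.18 (SE 0.36, adjusted p 0.0346) by edgeR. Without the day 1 round 1 expanded library it was 1.89 (edgeR adjusted p 0.00628). After thinning, a Cxcl3 UMI was seen in 9.85, 17, 16.7, 24.3 and 16.4% of control and 10.7, 57.5, 40.6, 29.7 and 29.8% of expanded cells, higher in 5 of 5 pairs. Thinning left out 395 control and 160 expanded cells, and the unthinned shares were 14.6% to 27.8% and 15.1% to 61.6%. Cxcl5 was 2.20, 120.3, 35.7, 4.15 and 9.66 CPM in control and 1.77, 10.9, 40.2, 25.9 and 3.02 CPM in expanded libraries, a log2 fold change of -1.20 (SE 1.08, adjusted p 0.436) by edgeR. Of the 4 members tested 1 was called, and 27% of all genes tested in the class were called.

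Different clusters made up this class in the arms. Cluster 9, led by Ccl24, C1qc and Cd209g, held 564, 504, 205, 173 and 461 cells of the control libraries and 55, 42, 1, 5 and 12 of the expanded ones. Cluster 4, led by Chil3, Ppbp and Arg1, held 23, 26, 11, 257 and 66 control and 71, 320, 1024, 277 and 470 expanded cells. Within cluster 4 alone, Cxcl1 was 3949, 3595, 1400.0, 1496 and 3308 CPM in control and 1117, 2008, 1814, 863 and 1527 CPM in expanded libraries, a log2 fold change of -0.93 (SE 0.29, adjusted p 0.266) by edgeR. Cxcl3 there was 764, 2801, 1752, 812 and 527 and 177, 3405, 1343, 1089.8 and 1306 CPM, a log2 fold change of 0.49 (SE 0.62, adjusted p 0.854). The control library of day 2 round 1 had 11 cells of cluster 4 and stayed out of these fits, in which 0.279% of genes were called (26 of 9317). Cxcl3 was lower in cluster 9 (142, 418, 385, 153 and 318 CPM) than in cluster 4 in each control library. In the 2 expanded libraries with at least 20 cells of cluster 9, both of day 1, its Cxcl3 was lower still, at 20.6 and 46.7 CPM. Cluster 9 thus did not share the higher Cxcl3 of the class in expanded skin. Neutrophil markers summed to 63.6 to 149 CPM in control and 508 to 2285 CPM in expanded macrophage or monocyte-like cells, and their part in the Cxcl3 difference was not tested. The shift between clusters was not held fixed in these sums.

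Mice told apart by hashtags gave the same directions. They split cells of the same libraries, so they are not independent of the values above. The day 1 round 1 libraries were not hashed, so the only pair with lower Cxcl3 in expanded cells is absent here. Over 14 control and 12 expanded mice with at least 20 macrophage or monocyte-like cells, Cxcl1 ranged from 542 to 4166 CPM (median 2469.6) in control and from 483 to 2639 CPM (median 1439) in expanded mice. The log2 fold change was -0.74 (SE 0.23, adjusted p 0.0111) by edgeR, with day and round as a factor. Cxcl3 ranged from 68.7 to 828 CPM (median 375) in control and from 242 to 3104 CPM (median 1048) in expanded mice, a log2 fold change of 1.48 (SE 0.33, adjusted p 5.41e-04) by edgeR. Cxcl2 had medians of 16616 and 14136 CPM and a log2 fold change of -0.06 (SE 0.16, adjusted p 0.784) by edgeR. The ranges overlapped for all 3 genes, and 48.1% of all genes tested over mice in this class were called. All mice of an arm and round shared 1 reaction, so reaction and arm cannot be told apart in this test.

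**Figure D4:**
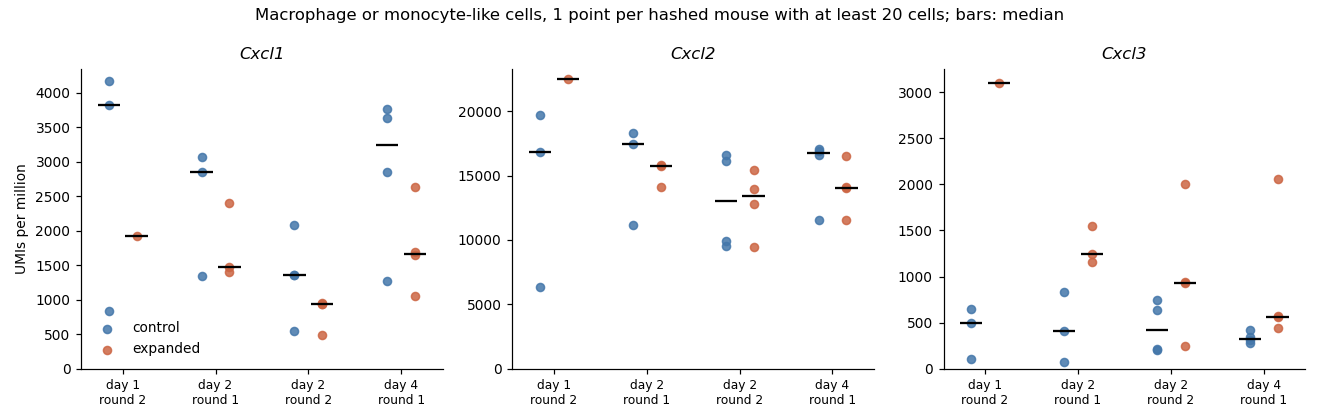
Levels of Cxcl1, Cxcl2 and Cxcl3 (CPM) in macrophage or monocyte-like cells, 1 point per hashed mouse with at least 20 such cells, grouped by day and sequencing round, with bars at the medians. The expanded medians lie below the control medians for Cxcl1 and above them for Cxcl3 in all 4 rounds. In day 1 round 2 the expanded value is that of 1 mouse, which had the highest Cxcl3 level of all (3104 CPM).

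Endothelial-like cells, which line the vessels that neutrophils cross, had lower Cxcl1 and Cxcl2 with expansion. Cxcl1 was 388, 559, 611, 534 and 592 CPM in control and 97.6, 199, 274, 34.0 and 405 CPM in expanded libraries, lower in all 5 pairs. Its log2 fold change was -1.60 (SE 0.39, adjusted p 0.0188) by edgeR. Without the control library of day 1 round 2 this became -1.50 (edgeR adjusted p 0.0511). Cxcl2 was 203, 268, 347, 106 and 227 CPM in control and 13.6, 64.8, 80.8, 41.1 and 79.1 CPM in expanded libraries, and the groups did not overlap. Its log2 fold change was -2.16 (SE 0.40, adjusted p 0.0057) by edgeR. Cxcl3 was low, at 0 to 12.0 and 0.8 to 3.55 CPM, with a log2 fold change of -1.58 (SE 0.68, adjusted p 0.149) by edgeR.

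Of the 3 members tested in endothelial-like cells 2 were called, against 12.2% of all genes tested there. In cluster 7 alone, the larger endothelial cluster, Cxcl2 changed by -1.98 (SE 0.44, adjusted p 0.0154) and Cxcl1 by -1.09 (SE 0.42, adjusted p 0.113) on the log2 scale by edgeR, with 10.1% of genes called. In cluster 29, led by Sele, Selp and Ackr1, Cxcl1 was 554 to 1086 CPM in control and 38.8 to 342 CPM in expanded libraries, without overlap but from 8 to 125 cells a library. Macrophage markers summed to 36.3 to 85.5 CPM in control and 9.92 to 54.8 CPM in expanded endothelial-like cells. There were 217 to 955 Cxcl2 UMIs per 100 such marker UMIs in control and 40.5 to 585 in expanded endothelial-like cells, against 81.4 to 107 and 57.2 to 330.2 in macrophage or monocyte-like cells, and the part of free RNA was not tested.

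Pericyte or smooth muscle-like cells kept a high Cxcl1 level, at 5777, 5317, 5432, 4389 and 5519 CPM in control and 1109, 3661, 6911, 2591 and 6033 CPM in expanded libraries. The expanded values ran both below and above the control values, and the log2 fold change was -0.56 (SE 0.35, adjusted p 0.283) by edgeR. Cxcl2 was 1391, 981, 2023, 712 and 919 CPM in control and 148, 667, 2522, 343 and 2211 CPM in expanded libraries, with a log2 fold change of -0.39 (SE 0.58, adjusted p 0.689) by edgeR. Cxcl3 was called higher, with 0, 6.62, 31.7, 2.22 and 2.08 CPM in control and 0, 4.87, 144, 25.1 and 26.6 CPM in expanded libraries, with a log2 fold change of 2.46 (SE 0.80, adjusted p 0.0463) by edgeR. That call rests on single cells: 97.6%, 88.9% and 96.0% of the expanded UMIs of day 2 round 1, day 2 round 2 and day 4 came from 1 cell each. DESeq2 gave 1.56 with an adjusted p of 0.469, and leaving out any of 6 libraries, 3 of each arm, ended the call, with log2 fold changes of 1.31 to 2.54. Those libraries were the controls of day 1 round 1, day 2 round 2 and day 4 and the expanded ones of day 1 round 2, day 2 round 1 and day 4. The 8 neutrophil markers summed to 0 to 3.17 CPM in control pericyte or smooth muscle-like cells (6 to 8 of them at 0 in a library) and to 5.58 to 1284 CPM in expanded ones (3 to 6 at 0), and their part in the Cxcl3 difference was not tested. Cxcl5 was 0, 0, 0, 129 and 2.77 CPM in control and 0, 0, 128, 16.7 and 237 CPM in expanded pericyte or smooth muscle-like cells, a log2 fold change of 1.38 (SE 1.11, adjusted p 0.417) by edgeR. Without the control library of day 2 round 2, whose 116 Cxcl5 UMIs all came from 1 cell, it was 6.19 (edgeR adjusted p 0.00394), and all 222 Cxcl5 UMIs of the day 4 expanded library also came from 1 cell. In this class 1 of 4 members tested was called, against 18.6% of all genes.

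In dendritic-like cells no member was called, against 15.9% of all genes. Cxcl2 was 6604, 7067, 6727, 8236 and 8409 CPM in control and 2558, 5854, 5805, 9084 and 7467 CPM in expanded libraries, lower in 4 of 5 pairs, with a log2 fold change of -0.55 (SE 0.23, adjusted p 0.122) by edgeR. Cxcl1 changed by -0.58 (SE 0.33, adjusted p 0.245) and Cxcl3 by -0.90 (SE 0.56, adjusted p 0.286) in the same fit. With finer clusters (resolution 2) Cxcl3 fell by 1.80 on the log2 scale (edgeR adjusted p 0.0382). Over 14 control and 10 expanded mice, Cxcl2 in dendritic-like cells had a median of 7467 CPM (4409 to 10613) in control and 6180.3 CPM (3081 to 8680.3) in expanded mice. Its edgeR log2 fold change over mice was -0.39 (SE 0.13, adjusted p 0.0221), with 36.2% of genes called, and the ranges overlapped. The expanded median was lower in day 1 round 2 (4664 against 7476 CPM) and day 2 round 1 (6100 against 7457 CPM). It was higher in day 2 round 2 (8680 against 8393 CPM, with 1 expanded mouse) and day 4 (7674 against 7463 CPM). Reaction and arm cannot be told apart over mice.

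Keratinocytes held low levels of the ligands. In suprabasal keratinocyte-like cells Cxcl1 was 138, 129, 28.3, 144 and 141 CPM in control and 107, 69.6, 205, 193 and 289 CPM in expanded libraries, with a log2 fold change of 0.27 (SE 0.35, adjusted p 0.636) by edgeR. Cxcl2 was 12.8 to 65.5 and 28.1 to 45.6 CPM there, with a log2 fold change of -0.09 (SE 0.28, adjusted p 0.87). Cxcl3 was at most 8.38 CPM, and its log2 fold change of 1.68 (SE 0.77, adjusted p 0.152) by edgeR became 1.74 (SE 0.47, adjusted p 0.0275) with the replicate block. Without the expanded library of day 1 round 1 the edgeR adjusted p was 0.035 for Cxcl3 and 0.0304 for Cxcr2. No member of the 4 tested was called without the block, against 17% of all genes. In basal keratinocyte-like cells Cxcl1 changed by 0.45 (SE 0.42, adjusted p 0.598) and Cxcl2 by 1.00 (SE 0.83, adjusted p 0.546) by edgeR, with 1.61% of genes called. In the expanded library of day 2 round 1, 90.4% of the basal Cxcl2 UMIs came from 1 cell, and with the replicate block the Cxcl2 value was -0.19.

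**Figure D5:**
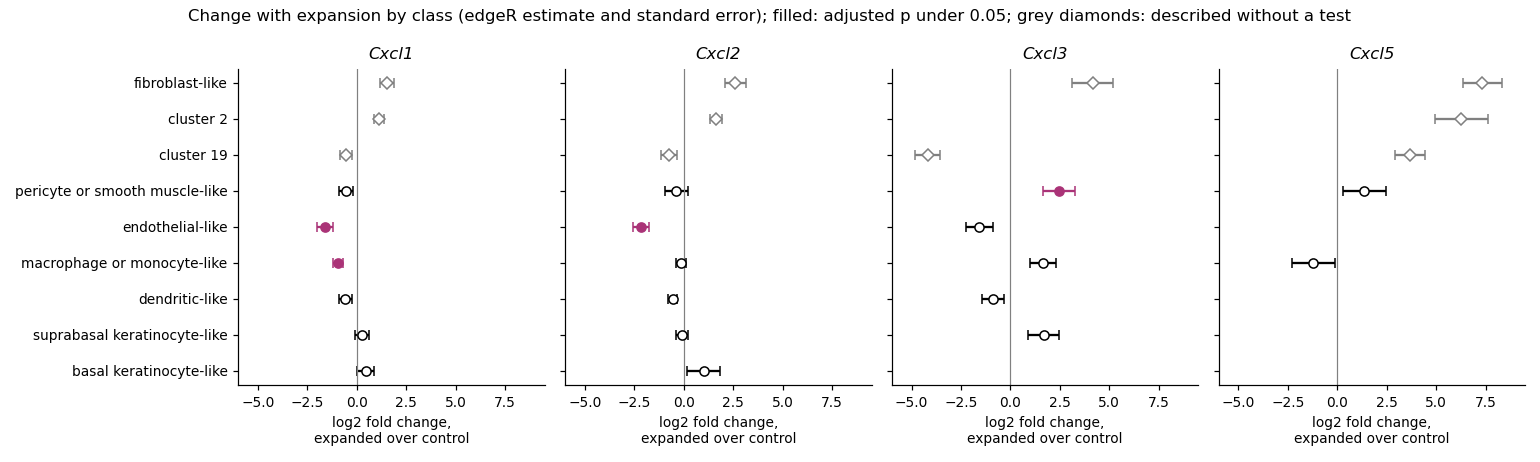
Log2 fold change of each ligand, expanded over control, with its standard error from edgeR, by class; filled points passed the adjusted p threshold, open circles did not, and grey diamonds mark fibroblast-like cells and clusters 2 and 19, which were described without a test. Fibroblast-like cells lie to the right of 0 for all 4 ligands, and endothelial-like cells to the left for Cxcl1, Cxcl2 and Cxcl3.

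Neutrophil-like cells had the highest levels of Cxcr2, Cxcl2 and Cxcl3 of all classes. At least 20 such cells were found in 1 control library (day 2 round 2) and in the expanded libraries of day 1 round 2, day 2 round 1, day 2 round 2 and day 4, so no test between arms was possible. In that order Cxcr2 was 868 CPM in the control library and 497, 683, 607 and 544 CPM in the expanded ones. Cxcl2 was 39283 and 55533, 63354, 57462 and 77001 CPM, and Cxcl3 was 3292 and 3951, 5238, 3169 and 7144 CPM. These Cxcl2 levels lay above every macrophage or monocyte-like value of either arm.

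Cxcl1 was 1616 CPM in the control library and 1577, 1142, 240.1 and 884 CPM in the expanded neutrophil-like cells, and Cxcl5 was at most 3.85 CPM. With cells thinned to 2000 UMIs, 47.2% to 58.4% of expanded neutrophil-like cells had a Cxcr2 UMI, 99.2% to 100% Cxcl2, 52.1% to 62.1% Cxcl3 and 9.58% to 25.3% Cxcl1. The unthinned Cxcr2 share reached 74.1%. T cell-like cells of expanded libraries had a Cxcr2 UMI in 0% to 1.44% of cells, at median depths of 3775 to 5965 UMIs against 2392 to 3784 in neutrophil-like cells. The 191 expanded neutrophil-like cells with fewer than 2000 UMIs are left out of these shares. Outside neutrophil-like cells Cxcr2 was scarce, with at most 12.1 CPM in any other named class or unnamed cluster of a library with at least 20 cells. In suprabasal keratinocyte-like cells it was 1.25, 2.43, 0, 0 and 1.57 CPM in control and 1.55, 7.02, 2.26, 3.93 and 2.98 CPM in expanded libraries, with a log2 fold change of 1.43 (SE 0.61, adjusted p 0.125) by edgeR. The 8 neutrophil markers summed to at most 17.5 CPM in control and up to 1118 CPM in expanded suprabasal cells. Per 100 of these marker UMIs there were 3.41 to 303 Cxcl2 UMIs in expanded suprabasal cells, against 41.1 to 77.3 in expanded neutrophil-like cells. Whether neutrophils or the keratinocytes themselves gave the marker UMIs was not tested, nor was their part in the Cxcr2 values.

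Summed over all cells of a library, Cxcr2 rose, and Cxcl1, Cxcl2 and Cxcl3 did not pass the test. Cxcr2 was 0.266, 0.673, 1.53, 3.05 and 1.17 CPM in control and 3.05, 7.58, 27.7, 24.1 and 15.7 CPM in expanded libraries, with no overlap and a log2 fold change of 3.40 (SE 0.31, adjusted p 0.0014) by edgeR. In such sums more neutrophils and more Cxcr2 mRNA per cell cannot be told apart. Cxcl5, described without a test because the choice of genes used it, was 0.947, 7.17, 3.13, 7.03 and 2.68 CPM in control and 7.09, 77.8, 119, 21.8 and 136 CPM in expanded libraries.

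Cxcl3 over all cells was 34.3, 65.5, 87.0, 96.6 and 61.5 CPM in control and 7.64, 249, 731, 371 and 406 CPM in expanded libraries, with a log2 fold change of 1.98 (SE 0.72, adjusted p 0.074) by edgeR. Cxcl2 was 1601, 1681, 2449.7, 2782 and 2418 and 645, 2412, 8895, 6635 and 5214 CPM, with a log2 fold change of 0.64 (SE 0.43, adjusted p 0.299). For both, the expanded library of day 1 round 1 lay below every control and the other 4 above their pairs. DESeq2 gave an adjusted p of 0.0435 for Cxcl3. Without that expanded library Cxcl3 rose by 2.40 (edgeR adjusted p 0.00115) and Cxcl2 by 1.01 (adjusted p 0.0218). Cxcl1 was 507, 574, 851, 806 and 811 and 256, 548, 1385, 656 and 1082 CPM, with a log2 fold change of -0.13 (SE 0.30, adjusted p 0.778) by edgeR. Of the 4 members tested over all cells 1 was called, against 23.5% of all genes.

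The days were compared with few libraries, and a member passed in 2 places, Cxcl1 in melanocyte-like cells and Cxcl2 in cluster 17. The test of the arm by day interaction called 0% of genes over all cells (0 of 18378, with 786 at an unadjusted p under 0.05), 0% in macrophage or monocyte-like cells (0 of 11474, with 181 unadjusted) and 0.00911% in endothelial-like cells (1 of 10971, with 375 unadjusted), and no member in any of them. Without the day 4 libraries it called 0 genes in these 3 comparisons, with 1396, 260 and 491 at an unadjusted p under 0.05. Across the days of the expanded arm 1.42% of genes were called over all cells (261 of 18378), among them no member; Cxcr2 had an edgeR adjusted p of 0.097. In melanocyte-like cells, the pigment cells, Cxcl1 had an arm by day interaction with an edgeR adjusted p of 1.77e-05, where 0.421% of genes were called (29 of 6893). From day 1 round 2 to day 4 its level was 13.3, 195.5, 406 and 26.4 CPM in control libraries and 37.3, 19.3, 18.3 and 31.4 CPM in expanded ones. Both day 2 control libraries lay above all other libraries. These values rest on few UMIs: 22 in the control library of day 2 round 1, 11 of them in 1 cell, and 216 in that of round 2, 204 of them in 1 cell. The day 1 round 1 libraries had 6 and 13 such cells and stayed out, so each arm had 4 libraries. Leaving out any 1 of the day 2 libraries gave adjusted p-values of 1.37e-08 to 0.00152 by edgeR, and leaving out day 4 gave 0.000984.

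Cxcl2 passed in cluster 17, an unnamed cluster led by Il17a, Il17f and Il5. It differed between the expanded days (edgeR adjusted p 0.00245, with 0.555% of genes called), at 94.8, 170.3, 60.5, 137 and 846 CPM in expanded and 283, 140.2, 104, 63.9 and 39.7 CPM in control libraries. The highest value is that of the only expanded library of day 4, and the interaction of arm and day had an edgeR adjusted p of 0.0646 for Cxcl2 in this cluster and of 0.999 without the day 4 libraries.

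The genes around this pathway were read from 9 lists of 70 genes; each is described by its counts, its median log2 fold change and the called members with the largest change, all by edgeR over all genes of a class. The median over all genes tested was 0.05 over all cells, 0.01 in fibroblast-like and in macrophage or monocyte-like cells, 0.02 in endothelial-like and 0.03 in pericyte or smooth muscle-like cells. The value after a gene's name is its log2 fold change. The lists, like the members, were chosen with earlier results of these data known. Their adjusted p-values are thus a description and no independent support. This holds most for fibroblast-like cells, whose contrast was known. Of all genes tested, 23.5% were called over all cells, 33.3% in fibroblast-like, 27% in macrophage or monocyte-like, 12.2% in endothelial-like and 18.6% in pericyte or smooth muscle-like cells, and a list with a share near these shows nothing particular to the list.

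A list of cytokines comes first, drawn up as inducers of the ligands but also holding the growth factors Csf2 and Csf3. 0 of 8 rose and 0 fell over all cells, 2 of 5 rose and 0 fell in fibroblast-like cells, 0 of 6 rose and 2 fell in macrophage or monocyte-like cells, 0 of 4 rose and 1 fell in endothelial-like cells and 0 of 2 rose and 0 fell in pericyte or smooth muscle-like cells, at medians of 0.75, 0.97, -0.06, -0.95 and 0.95 in that order. Csf3 (3.40, adjusted p 0.00258) and Csf2 (3.07, adjusted p 0.0448) rose in fibroblast-like cells. They were the only members of the list to do so, a share not far from the 33.3% of all genes called there. Csf2 (-3.97, adjusted p 0.00622) and Tnf (-1.14, adjusted p 0.0022) fell in macrophage or monocyte-like cells. Il6 (-0.96, adjusted p 0.0121) fell in endothelial-like cells. Csf3 encodes the neutrophil growth factor G-CSF and Csf2 that of granulocytes and macrophages. In fibroblast-like cells Csf3 was 0 to 8.89 CPM in control and 0.071 to 63.8 CPM in expanded libraries. These ranges overlapped, and the part of single cells in them was not tested. In macrophage or monocyte-like cells Tnf, tumour necrosis factor, was 175 to 377 and 88.9 to 192 CPM. Il1b there changed by 0.71 (SE 0.55, adjusted p 0.368) and Il1a by -0.08 (SE 0.51, adjusted p 0.922) on the log2 scale. In neutrophil-like cells of 4 expanded libraries Il1b was 15468 to 20344 CPM and Il1a 472 to 1387 CPM. Il17a, a cytokine of T cells that raises these chemokines, changed by 1.80 (SE 0.73, adjusted p 0.101) over all cells.

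The receptors and adaptors of those cytokines follow. 1 of 8 rose and 0 fell over all cells, 2 of 8 rose and 0 fell in fibroblast-like cells, 2 of 6 rose and 1 fell in macrophage or monocyte-like cells, 0 of 8 rose and 1 fell in endothelial-like cells and 0 of 8 rose and 1 fell in pericyte or smooth muscle-like cells, at medians of -0.01, 0.01, 0.64, -0.41 and 0.15 in that order. Tnfrsf1a (0.31, adjusted p 0.0442) rose over all cells. Il1r1 (0.77, adjusted p 0.00401) and Tnfrsf1a (0.56, adjusted p 0.0058) rose in fibroblast-like cells. Il1rap (0.89, adjusted p 0.00218) and Irak2 (0.78, adjusted p 0.046) rose and Tnfrsf1a (-0.75, adjusted p 0.0194) fell in macrophage or monocyte-like cells. Il1rap (-1.24, adjusted p 0.0261) fell in endothelial-like cells. Myd88 (-0.53, adjusted p 0.0251) fell in pericyte or smooth muscle-like cells. Il1r1 is the interleukin-1 receptor and Tnfrsf1a a receptor of tumour necrosis factor; in fibroblast-like cells Il1r1 was 86.2 to 129.9 CPM in control and 116 to 285 CPM in expanded libraries.

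No NF-kappaB response or feedback gene rose in the classes described here, and several fell in each. In macrophage or monocyte-like cells the share that fell was near that of all genes called there (27%), so it is not particular to the list. 0 of 11 rose and 4 fell over all cells, 0 of 11 rose and 7 fell in fibroblast-like cells, 0 of 11 rose and 3 fell in macrophage or monocyte-like cells, 0 of 11 rose and 6 fell in endothelial-like cells and 0 of 11 rose and 8 fell in pericyte or smooth muscle-like cells, at medians of -0.39, -0.43, -0.35, -0.50 and -0.66 in that order. Cebpd (-1.19, adjusted p 0.00167), Nfkb1 (-0.90, adjusted p 0.0192), Rel (-0.58, adjusted p 0.0374) and Rela (-0.53, adjusted p 0.0317) fell over all cells. Cebpd (-0.91, adjusted p 4.18e-04), Nfkb1 (-0.64, adjusted p 0.0204), Rel (-0.55, adjusted p 0.0176) and Cebpb (-0.50, adjusted p 0.0356) fell in fibroblast-like cells, with the largest changes of those called. Cebpd (-1.06, adjusted p 0.00153), Nfkb1 (-0.83, adjusted p 0.0101) and Rel (-0.73, adjusted p 0.0143) fell in macrophage or monocyte-like cells. Cebpb (-1.13, adjusted p 0.0111), Cebpd (-0.91, adjusted p 0.00427), Nfkb2 (-0.72, adjusted p 0.0181) and Nfkbia (-0.66, adjusted p 0.00639) fell in endothelial-like cells, with the largest changes of those called. Rel (-1.32, adjusted p 3.77e-04), Cebpb (-1.30, adjusted p 7.91e-04), Nfkb1 (-1.10, adjusted p 0.00364) and Cebpd (-1.06, adjusted p 9.08e-04) fell in pericyte or smooth muscle-like cells, with the largest changes of those called. Nfkb1 and Rel encode NF-kappaB subunits, and Cebpb and Cebpd transcription factors of the acute response. Nfkbiz, which encodes a co-activator of chemokine genes, changed by -0.22 (SE 0.13, adjusted p 0.221) in fibroblast-like, -0.33 (SE 0.17, adjusted p 0.167) in macrophage or monocyte-like and -0.90 (SE 0.13, adjusted p 7.71e-04) in pericyte or smooth muscle-like cells.

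The regulators of chemokine mRNA decay fell where they were called, with 1 exception, Zfp36l2 in macrophages. Over all cells and in fibroblast-like cells the called share was not far from that of all genes (23.5% and 33.3%). 0 of 7 rose and 2 fell over all cells, 0 of 7 rose and 3 fell in fibroblast-like cells, 1 of 7 rose and 3 fell in macrophage or monocyte-like cells, 0 of 7 rose and 2 fell in endothelial-like cells and 0 of 7 rose and 3 fell in pericyte or smooth muscle-like cells, at medians of -0.17, -0.20, -0.51, -0.36 and -0.53 in that order. Zfp36l1 (-0.62, adjusted p 0.036) and Rc3h1 (-0.52, adjusted p 0.0213) fell over all cells. Zfp36l1 (-0.62, adjusted p 0.0218), Arid5a (-0.57, adjusted p 0.00319) and Rc3h1 (-0.52, adjusted p 0.00852) fell in fibroblast-like cells. Zfp36l2 (0.72, adjusted p 0.00922) rose and Zfp36l1 (-0.64, adjusted p 0.0274), Rc3h1 (-0.58, adjusted p 0.0296) and Zfp36 (-0.52, adjusted p 0.0414) fell in macrophage or monocyte-like cells. Zfp36l1 (-0.72, adjusted p 0.0323) and Arid5a (-0.57, adjusted p 0.00866) fell in endothelial-like cells. Arid5a (-0.87, adjusted p 0.00459), Zfp36l1 (-0.79, adjusted p 0.00238) and Rc3h1 (-0.49, adjusted p 0.0413) fell in pericyte or smooth muscle-like cells. Zfp36, which encodes tristetraprolin, changed by -0.20 (SE 0.14, adjusted p 0.3) in fibroblast-like cells.

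Receptors of other neutrophil attractants moved with Cxcr2 over all cells. 5 of 8 rose and 0 fell over all cells, 2 of 4 rose and 0 fell in fibroblast-like cells, 3 of 7 rose and 1 fell in macrophage or monocyte-like cells and 0 of 2 rose and 0 fell in endothelial-like cells, at medians of 1.75, 0.78, 0.95 and -0.19 in that order. Cxcr1 (6.41, adjusted p 0.017), Fpr1 (4.63, adjusted p 0.00312), Fpr2 (2.41, adjusted p 0.00665) and Ccr1 (1.86, adjusted p 0.0103) rose over all cells, with the largest changes of those called. Ccr1 (1.88, adjusted p 0.0314) and Ltb4r1 (1.46, adjusted p 0.0357) rose in fibroblast-like cells. The neutrophil markers summed higher in expanded fibroblast-like cells too, as given above, and the part of free RNA in these calls was not tested. Ltb4r1 (3.10, adjusted p 0.00446), Fpr2 (1.06, adjusted p 0.00971) and Ccr1 (0.95, adjusted p 0.0293) rose and C5ar1 (-1.24, adjusted p 0.0245) fell in macrophage or monocyte-like cells. Cxcr1 is the other receptor for CXC ligands of this kind, and Fpr1 and Fpr2 detect bacterial peptides. Cxcr4, which holds neutrophils in bone marrow, changed by 0.68 (SE 0.27, adjusted p 0.0968) over all cells. The genes that carry or end the CXCR2 signal follow. 3 of 8 rose and 0 fell over all cells, 3 of 6 rose and 0 fell in fibroblast-like cells, 1 of 8 rose and 0 fell in macrophage or monocyte-like cells, 1 of 6 rose and 1 fell in endothelial-like cells and 0 of 5 rose and 0 fell in pericyte or smooth muscle-like cells, at medians of 0.40, 0.15, 0.17, 0.19 and -0.06 in that order. Arrb2 (0.66, adjusted p 0.0432), Grk2 (0.63, adjusted p 0.0229) and Grk6 (0.60, adjusted p 0.00776) rose over all cells. Rgs2 (1.09, adjusted p 0.00247), Grk6 (0.54, adjusted p 0.0067) and Grk2 (0.40, adjusted p 0.0258) rose in fibroblast-like cells. Grk2 (0.56, adjusted p 0.0109) rose in macrophage or monocyte-like cells. Grk2 (0.54, adjusted p 0.0216) rose and Rgs2 (-0.96, adjusted p 0.0259) fell in endothelial-like cells. Grk2 and Grk6 encode kinases that switch off such receptors.

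Other CXC chemokines changed in both directions. 2 of 7 rose and 1 fell over all cells, 0 of 6 rose and 0 fell in fibroblast-like cells, 1 of 7 rose and 1 fell in macrophage or monocyte-like cells, 0 of 5 rose and 3 fell in endothelial-like cells and 0 of 4 rose and 1 fell in pericyte or smooth muscle-like cells, at medians of 0.19, -0.05, 0.06, -1.25 and -0.36 in that order. Ppbp (4.31, adjusted p 0.00525) and Cxcl14 (1.05, adjusted p 0.0405) rose and Cxcl12 (-0.82, adjusted p 0.00401) fell over all cells. Ppbp (3.35, adjusted p 0.00865) rose and Cxcl9 (-3.40, adjusted p 0.00787) fell in macrophage or monocyte-like cells. Cxcl9 (-4.17, adjusted p 0.0026), Cxcl16 (-1.85, adjusted p 0.00821) and Cxcl12 (-1.11, adjusted p 0.00306) fell in endothelial-like cells. Cxcl10 (-1.71, adjusted p 0.00664) fell in pericyte or smooth muscle-like cells. Ppbp is a further CXCR2 ligand, at 0.999 to 28.5 CPM in control and 4.12 to 120.5 CPM in expanded macrophage or monocyte-like cells, and Cxcl9 is an interferon-induced attractant of T cells.

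The adhesion genes of neutrophil entry were lower where called, and several of these calls were in cells other than vessel cells. 0 of 7 rose and 4 fell over all cells, 0 of 4 rose and 3 fell in fibroblast-like cells, 0 of 5 rose and 1 fell in macrophage or monocyte-like cells, 0 of 7 rose and 3 fell in endothelial-like cells and 0 of 5 rose and 1 fell in pericyte or smooth muscle-like cells, at medians of -1.17, -0.76, -0.24, -0.35 and -0.06 in that order. Vcam1 (-2.03, adjusted p 0.0044), Cd34 (-1.85, adjusted p 0.00268), Sele (-1.35, adjusted p 0.0429) and Icam1 (-0.47, adjusted p 0.0349) fell over all cells. Cd34 (-1.94, adjusted p 4.42e-04), Vcam1 (-0.97, adjusted p 0.0122) and Icam1 (-0.55, adjusted p 0.00457) fell in fibroblast-like cells. Cd34 (-3.10, adjusted p 7.03e-04) fell in macrophage or monocyte-like cells. Vcam1 (-2.71, adjusted p 0.00847), Sele (-2.02, adjusted p 0.0056) and Selp (-1.96, adjusted p 0.00148) fell in endothelial-like cells. Vcam1 (-1.23, adjusted p 0.0453) fell in pericyte or smooth muscle-like cells. Sele and Selp encode the selectins on which neutrophils roll; in endothelial-like cells Sele was 259 to 744 CPM in control and 35.4 to 282 CPM in expanded libraries. Of the decoy receptors, which bind chemokines without a G protein signal, Ackr1 carries them across venules. 0 of 3 rose and 2 fell over all cells, 0 of 3 rose and 1 fell in fibroblast-like cells, 0 of 1 rose and 0 fell in macrophage or monocyte-like cells, 0 of 2 rose and 1 fell in endothelial-like cells and 0 of 1 rose and 0 fell in pericyte or smooth muscle-like cells, at medians of -1.10, -0.33, -0.62, -0.98 and 0.47 in that order. Ackr1 (-1.72, adjusted p 0.00433) and Ackr3 (-1.10, adjusted p 0.00879) fell over all cells. Ackr1 (-0.82, adjusted p 0.0254) fell in fibroblast-like cells. Ackr1 (-1.72, adjusted p 3.80e-04) fell in endothelial-like cells. Ackr1 in endothelial-like cells was 259 to 385 CPM in control and 67.4 to 157 CPM in expanded libraries, with no overlap. The share of venular cells within the endothelial-like class was not held fixed in these tests, nor was the share of each class in the tests over all cells.

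Over 140 sums of a named class and a library, from 16 classes, the pattern of each gene was set beside that of 10969 genes by Pearson's r of log2(CPM + 1). The sums share libraries and classes, so these values are a description. Most like Cxcl2 were Cd14 (r 0.865), the co-receptor for bacterial lipopolysaccharide, Cxcl3 (0.855) and Clec4d (0.832). Most like Cxcl3 were Clec4d (0.870) and Clec4e (0.861), lectin receptors of myeloid cells, and Cxcl2 (0.855). Cxcl1 was closest to Anxa3 (0.763), Bach1 (0.712) and Slc8a1 (0.698). Cxcl5 had the lowest leading values, with Ereg, an epidermal growth factor receptor ligand, at 0.562, Esd at 0.531 and Cxcl1 at 0.519. Cxcr2 was closest to Mrgpra2b (0.856), Olfm4 (0.85) and Retnlg (0.843), and its r with the 4 ligands ran from -0.04 for Cxcl5 to 0.440 for Cxcl3.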

How the data were processed

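The 10 mRNA libraries hold whole-number UMI counts per gene and cell barcode, deposited by the authors as matrices of genes by cells. Per the submitters' processing notes they used Cell Ranger 6.1.2 and the mm10 build; per the labels' protocols, libraries were made with a 10x 3' kit with hashing. Hashtag antibody counts stand in the same deposited matrices for 8 of the libraries. How reads that align to more than 1 of the related ligand genes were counted is not given in the sources used here.

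Barcodes were kept from 200 genes and 500 UMIs upwards if mitochondrial genes gave no more than 10% of the UMIs (47251 of 55174 barcodes), and 2887 were removed as doublets, by a score against simulated doublets in each library (as many as the number of cells leads one to expect) and, in hashed libraries, also by hashtags (HTODemux, Seurat 5.3.0, quantile 0.99). Leiden clusters (resolution 1) came from a graph of 15 neighbours over 30 principal components of the 2000 most variable genes (scikit-learn 1.9.0, igraph 0.11.9, leidenalg 0.10.2), with the 5 members left out, and were named by marker lists. After removal of doublets, kept cells per library numbered 1833 to 7682. Counts were summed per class and library (at least 20 cells, at least 4 libraries per arm) and tested with edgeR 4.0.16 in R 4.3.3 (quasi-likelihood, TMM, low-count filter, day as a covariate), with Benjamini-Hochberg adjustment over all genes of a class; sums per hashed mouse were tested with day and round as a factor. DESeq2 1.42.0 and the settings listed in the closing section were alternatives. The code was tested on simulated data.

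The members and lists were chosen with earlier results of these data known. List genes are named where they have the 2 to 4 largest absolute log2 fold changes among those called in a class, and Il1a, Il1b, Tnf, Il17a, Ackr1, Zfp36, Nfkbiz and Cxcr4 are named in any case. The genes most like a member have the highest r among genes with a mean of at least 5 CPM. Same-numbered libraries of a day share a sequencing round per the labels, which pairs them: their deviations from the group means correlated at 0.56 on day 1 and 0.32 on day 2, over 13582 genes. The main fit took day and not the pair as a covariate, and the replicate block took the pair. Libraries are split by day and round, and no other batch is given. Intervals and shares cover counting error only.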

Additional observations from a re-analysis of the deposited data

Results flagged for a closer look

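Of 62 groups of 4 or 5 libraries checked for a library far from the others, 10 held one. The cut-off gives about 1 in 20 for normally distributed values. CPM values are often skewed, some rest on 1 cell, and the groups share libraries, so this count cannot be set against chance. In macrophage or monocyte-like cells Cxcl5 reached 120.3 CPM in the day 1 round 2 control and 2.20 to 35.7 CPM in the other controls. In pericyte or smooth muscle-like cells the day 2 round 1 libraries stood apart for Cxcl3 in both arms, at 31.7 CPM in control and 144 CPM in expanded skin. The day 2 round 2 control stood apart for Cxcl5 in the same class, at 129 CPM.

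Suprabasal keratinocyte-like cells had a low Cxcl1 value in the day 2 round 1 control, at 28.3 CPM. Basal keratinocyte-like cells had a high one in the day 2 round 2 control, at 144 CPM. In the expanded library of day 2 round 1, basal cells stood apart for Cxcl2 at 372 CPM and for Cxcl3 at 27.5 CPM. Fibroblast-like cells of the day 4 expanded library stood apart for Cxcl3 at 145 CPM, and cluster 19 of the expanded library of day 2 round 1 for Cxcl3 at 43.3 CPM.

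Cell groups are listed here when a gene moved the same way in every pair of libraries, and the opposite way in another group. The agreement across pairs thus follows from the selection, and these differences were not tested. The fibroblast-like contrast was also known when the genes were chosen. For Cxcl1 the mean log2 ratio of expanded to control differed by 2.49 between fibroblast-like cells (1.61) and macrophage or monocyte-like cells (-0.88), and by 3.43 between fibroblast-like and endothelial-like cells (-1.82). Cluster 2 (1.07) differed from macrophage or monocyte-like cells by 1.95 and from endothelial-like cells by 2.89. For Cxcl2, cluster 2 (1.72) differed from endothelial-like cells (-2.15) by 3.88.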

How the results depend on the processing

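Over all recomputed values, 670 kept their direction and their side of the threshold or moved little, 54 moved, 25 newly passed the threshold, 14 no longer passed and 1 reversed. The cause was not tested, unless the setting itself leaves fewer cells, genes or libraries. Thinning cells to 2000 UMIs gave 2397 called genes over all cells, 1725 in macrophage or monocyte-like, 628 in dendritic-like, 345 in endothelial-like, 538 in pericyte or smooth muscle-like, 353 in suprabasal, 32 in basal and 2072 in fibroblast-like cells. Single clusters, an alternative chosen after seeing the data, gave 26 (cluster 4), 94 (cluster 26), 132 (cluster 20), 2514 (cluster 3) and 1889 (cluster 6). Without a filter on low counts 1891 genes were called in endothelial-like and 771 in basal cells, and Leiden resolution 2 gave 421 in suprabasal and 2009 in basal cells.

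With the replicate block, which pairs libraries by day and sequencing round, the count of called genes in basal cells went from 161 to 492. Beside the values given with the block in the report, it ended no call of a member. Cxcl1 in macrophage or monocyte-like cells was -0.93 in cluster 4 alone and 0.28 in cluster 26 alone, the latter reversed. Cxcl1 in endothelial-like cells was -1.09 in cluster 7 alone. Cxcl3 in pericyte or smooth muscle-like cells was 1.56 with DESeq2, and Cxcl5 in fibroblast-like cells 4.4 in cluster 6 alone. Values that newly passed the threshold came mostly without a filter on low counts, which also called Cxcl1, Cxcl2 and Cxcl3 in dendritic-like cells; Cxcl3 over all cells and in macrophage or monocyte-like cells also passed with thinned cells. Unthinned, the median expanded share of fibroblast-like cells was 56.6% for Cxcl1 and 32.6% for Cxcl2.

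Leaving out 1 library at a time gave 1841 to 4871 called genes over all cells, 1626 to 3183 in macrophage or monocyte-like, 667 to 1953 in dendritic-like, 698 to 1236 in endothelial-like, 714 to 1481 in pericyte or smooth muscle-like, 1028 to 2046 in suprabasal, 23 to 181 in basal and 3319 to 4299 in fibroblast-like cells. For the arm by day interaction in melanocyte-like cells, where only the day 2 libraries were left out in turn, an alternative chosen after seeing the data, it gave 27 to 79 called genes, against 29 with all libraries. The log2 fold change of Cxcr2 over all cells was 3.20 to 3.57, that of Cxcl1 -1.18 to -0.84 in macrophage or monocyte-like and -1.99 to -1.33 in endothelial-like cells, that of Cxcl2 in endothelial-like cells -2.39 to -1.86 and that of Cxcl3 in pericyte or smooth muscle-like cells 1.31 to 3.11. In fibroblast-like cells it was 1.12 to 1.73 for Cxcl1, 2.17 to 2.98 for Cxcl2, 3.24 to 4.91 for Cxcl3 and 6.39 to 8.46 for Cxcl5. Cells per class limit Cxcl3 and Cxcl5 in stromal cells, where 1 cell can hold most UMIs of a library.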

Other observations

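T cell-like cells, used above as cells that should lack the ligands, had more Cxcl2 in the day 1 round 1 libraries of both arms than in the other libraries. Their Cxcl2 was 624, 71.0, 56.4, 65.1 and 119 CPM in control and 506, 46.1, 127, 72.7 and 100.1 CPM in expanded libraries. The 11 macrophage or monocyte markers summed to 732 CPM in control and 2334 CPM in expanded T cell-like cells of that round, against 267 to 479.6 CPM in the other libraries, and their part in the Cxcl2 values was not tested. These libraries were not hashed.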
